A study of Mus musculus with 8 samples.

Results

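Claudins and the genes that work beside them at epithelial cell contacts were followed through 8 mouse mammary tumors. The set held 10 genes out of 14860 genes named on the array. They are the claudins Cldn1, Cldn3, Cldn4, Cldn7, Cldn8 and Cldn10, together with Epcam, Tjp1, Ocln and Muc1. A gene was read from a row of the expression table whose platform annotation named that gene and no other, and each of the 10 genes had exactly 1 such row.

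Of the tumors, 4 came from MMTV-Wnt1 mice (MMTV-Wnt-1 in the labels), which express Wnt1. The other 4 came from MMTV-Wnt/ILK mice, which express Wnt1 and a human ILK transgene, the gene of integrin-linked kinase. The paper calls the tumors independent, and the number of mice they came from was not given. Both transgenes are driven by the long terminal repeat of mouse mammary tumor virus, which is active in mammary epithelium, so both groups carry the Wnt1 transgene and differ by design in the ILK transgene. Both parental lines had been backcrossed to FVB mice, and the double-transgenic animals came from MMTV-Wnt1 males and MMTV-ILK females. All donors were nulliparous females, and their ages were not given for these samples. RNA was taken from snap-frozen pieces of whole tumor from the mammary fat pad and read on 1 Affymetrix Mouse Exon 1.0 ST array per tumor, so each value mixes tumor epithelium with stroma, vessels and adjoining tissue. In such bulk samples, fewer epithelial cells and less RNA per epithelial cell cannot be told apart. Values are on a log2 scale, on which a difference of 1 is a change of 2-fold. Because each gene was read by its own probes, levels were compared between tumors and never between genes.

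Tight junctions are belts of contact near the apical surface of epithelial cells that limit the passage of ions and solutes between cells. Claudins, a family of membrane proteins, form the strands of the belt, and the mix of claudins sets which ions may pass. Occludin (Ocln) lies in the same strands, ZO-1 (Tjp1) anchors them to actin on the inner face of the membrane, EpCAM (Epcam) is an adhesion protein of the lateral membrane, and the mucin MUC1 (Muc1) coats the free surface of luminal cells. In human breast cancer, low claudin expression is used to describe the claudin-low subtype.

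Array medians lay between 6.89 and 7.23, with correlations of 0.920 to 0.974 between arrays. Of 23332 rows, 0% passed an adjusted p under 0.05 in limma, a linear model with moderated variances (smallest adjusted p = 0.905), while 5.11% (1193 rows) passed an unadjusted p under 0.05. Several tumors stood apart in genes of other tissues. MMTV-Wnt1 tumor 2 had a mean log2 value of 8.38 over 6 fat genes, against 5.52 to 5.96 in the other tumors. Skeletal muscle genes were at 8.19 in MMTV-Wnt1 tumor 1 and 9.04 in MMTV-Wnt/ILK tumor 3, against 6.09 to 6.39 elsewhere. Fibroblast genes were at 7.63 in MMTV-Wnt1 tumor 3 and at 9.82 to 10.72 in the other 7. Luminal markers, of which 8 of the 10 listed had a row, averaged 9.93 to 10.44 in MMTV-Wnt1 tumors and 9.87 to 10.59 in MMTV-Wnt/ILK tumors, and 8 basal markers averaged 9.31 to 9.76 and 9.15 to 9.97. Genes listed as markers of both epithelial layers were thus read in every tumor. Which cells of the bulk tissue they came from was not tested.

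For none of the 10 junction genes did the difference between MMTV-Wnt/ILK and MMTV-Wnt1 tumors pass the test. In limma, 0 of the 10 had an adjusted p under 0.05, against 0% of all rows. At an unadjusted p under 0.05 there were 0 of the 10, against 5.11% of all rows (2.91% higher and 2.21% lower in MMTV-Wnt/ILK). The groups overlapped for all 10 genes, whereas they did not overlap for 2.9% of all rows, 1.47% with the MMTV-Wnt/ILK tumors above and 1.42% with them below. The mean was lower in MMTV-Wnt/ILK tumors for 7 genes and higher for 3, with a median difference of -0.14 on the log2 scale. Over all rows the mean was lower for 54.7% and the median difference was -0.03. Among the 14860 named genes these values were 59.2% and -0.05. The largest differences were those of Cldn4 and Ocln, both with a difference of -0.69, and of Muc1, with 0.86. Leaving out MMTV-Wnt/ILK tumor 4, in which only 1 of the 10 genes lay above its mean, brought the median difference to -0.06, and leaving out MMTV-Wnt1 tumor 1 brought it to -0.24. It was -0.26 with values taken relative to the luminal markers and -0.24 without the 3 tumors high in fat or muscle genes. The latter setting leaves MMTV-Wnt1 tumors 3 and 4 against MMTV-Wnt/ILK tumors 1, 2 and 4. The mean of the luminal markers was itself 0.12 higher in MMTV-Wnt/ILK tumors, so the first of these settings lowers every difference by 0.12. The 8 luminal markers were Krt18, Krt19, Cdh1, Elf3, Spint1, Spint2, Prom1 and Cd14. Of them 4 were higher and 4 lower, with a median difference of -0.02. Krt19 (0.92) and Cd14 (0.56) had the largest differences among them. Cdh1 and Elf3 are also in the lists of other junction genes, so this reference is not independent of those lists.

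**Figure D1:**
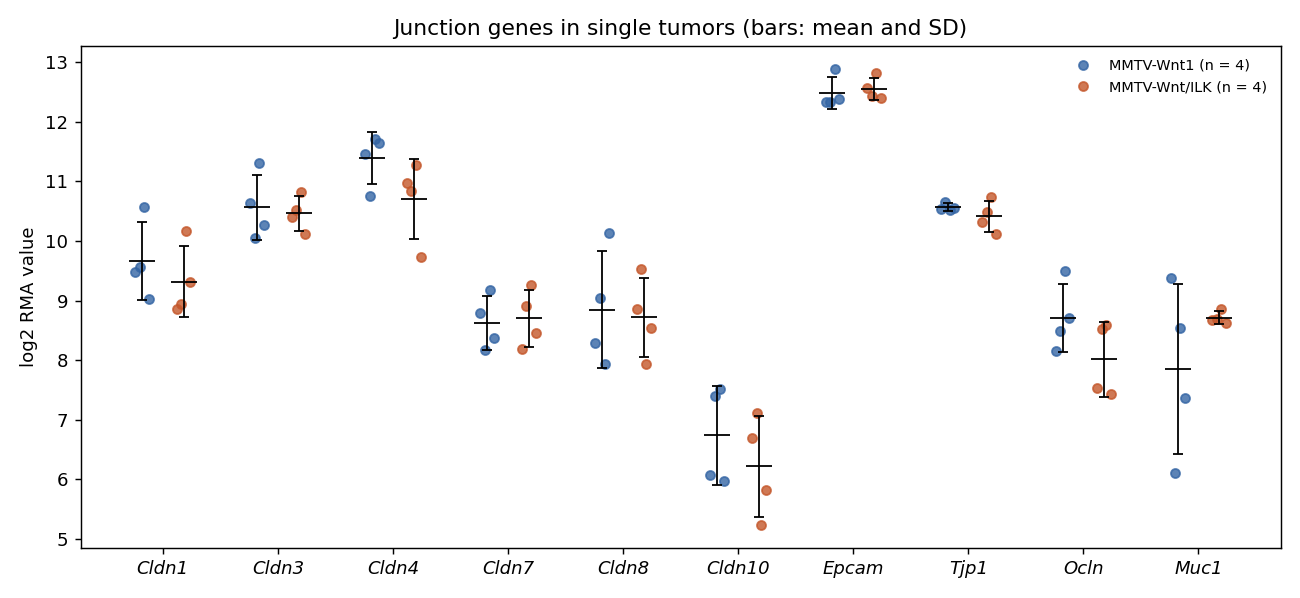
Log2 value (vertical axis) of each of the 10 junction genes in 4 MMTV-Wnt1 and 4 MMTV-Wnt/ILK tumors, 1 point per tumor, with the mean and SD of each group. The groups overlap for every gene, and Muc1 runs from 6.10 to 9.38 in MMTV-Wnt1 tumors but only from 8.63 to 8.87 in MMTV-Wnt/ILK tumors.

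**Figure D2:**
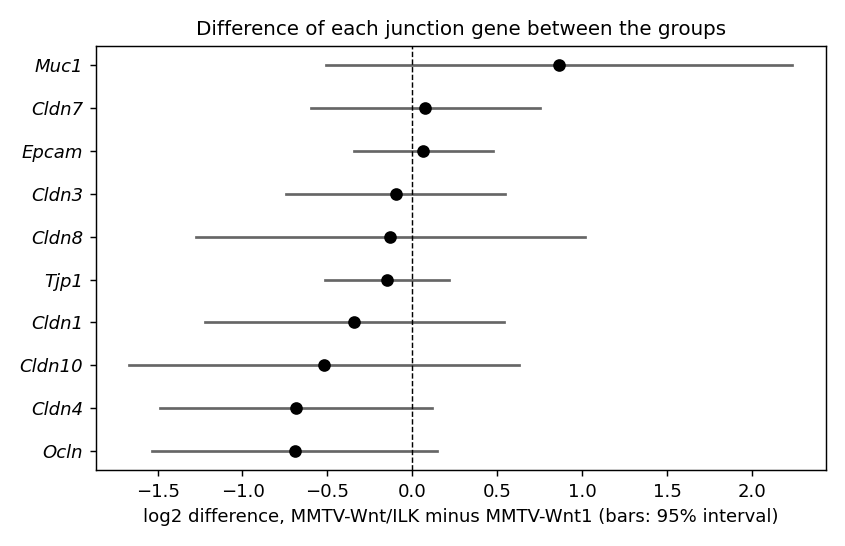
Difference of each junction gene between the groups (horizontal axis, log2, MMTV-Wnt/ILK minus MMTV-Wnt1), with the point at the limma estimate and the bar over its 95% interval. Every interval includes 0, from that of Ocln (-1.53 to 0.15) to that of Muc1 (-0.51 to 2.24).

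Cldn4, a claudin of many simple epithelia that tightens the junction against cations, had log2 values of 11.46, 10.75, 11.71 and 11.64 in MMTV-Wnt1 tumors 1 to 4 and of 10.98, 10.83, 11.28 and 9.74 in MMTV-Wnt/ILK tumors 1 to 4. The lowest value was that of MMTV-Wnt/ILK tumor 4, the only tumor of its group below the MMTV-Wnt1 range. The group means were 11.39 ± 0.44 (SD, n = 4) and 10.71 ± 0.67 (SD, n = 4), which put the difference at -0.69 ± 0.35 (SE, 95% interval -1.49 to 0.12). The difference did not pass (limma unadjusted p = 0.0847, adjusted p = 0.905, exact 2-sided permutation p = 0.143). It moved to -0.36 without MMTV-Wnt/ILK tumor 4 (limma unadjusted p = 0.213, adjusted p = 0.9998). Without MMTV-Wnt1 tumor 2 it was -0.90, where the limma unadjusted p was 0.0336 and the adjusted p 0.823. Without MMTV-Wnt/ILK tumor 3 it was -0.88 (limma unadjusted p = 0.0436, adjusted p = 0.915). It was -1.16 when the 3 tumors high in fat or muscle genes were left out (limma unadjusted p = 0.0307, adjusted p = 0.765). That setting leaves MMTV-Wnt1 tumors 3 and 4, the 2 tumors with the highest Cldn4 values, against MMTV-Wnt/ILK tumors 1, 2 and 4. Of all 23332 rows it put 1424 at an unadjusted p under 0.05, against 1193 with all tumors. Relative to the mean of the luminal markers, which lowers every difference by 0.12, the Cldn4 difference was -0.81 (limma unadjusted p = 0.0140, adjusted p = 0.975).

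The 250 bases before the start of Cldn4 are shown because it was one of the genes with the largest differences. RefSeq (GRCm38.p6) places them at chr5:134946935-134947184 on the minus strand. Capitals mark matches to the letters of an AP-1 motif (TGACTCA), which is bound by Fos and Jun proteins, and of an E-box (CAGGTG), which is bound by the repressors Snail and Zeb among others. Both strands were searched, so an E-box may also read CACCTG.
Cldn4: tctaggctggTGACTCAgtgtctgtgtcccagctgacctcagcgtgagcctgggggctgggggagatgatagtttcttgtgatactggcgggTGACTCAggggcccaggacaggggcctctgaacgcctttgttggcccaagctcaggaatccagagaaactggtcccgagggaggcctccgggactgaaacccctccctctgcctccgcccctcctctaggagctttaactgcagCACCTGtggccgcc
TGACTCA lay 240 and 158 bases before the start and CACCTG lay 14 bases before it, with no overlap between matches. Of 32851 such windows of the mouse genome, 4.46% held the AP-1 letters and 17.2% the E-box letters. Among the 9 members with a window, 1 held the AP-1 letters and 5 the E-box letters. These are counts of genes, whereas the shares are per window. The 9 members had 12 windows, so some had more than 1 chance of a match. A match describes the sequence only, and binding was not measured.

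Ocln, which codes for occludin, was at 8.16, 8.49, 9.50 and 8.70 in MMTV-Wnt1 tumors 1 to 4 and at 7.52, 8.52, 8.60 and 7.43 in MMTV-Wnt/ILK tumors 1 to 4. MMTV-Wnt/ILK tumors 1 and 4 were below the MMTV-Wnt1 range and tumors 2 and 3 inside it. The means were 8.71 ± 0.57 (SD, n = 4) and 8.02 ± 0.63 (SD, n = 4). The difference was -0.69 ± 0.37 (SE, 95% interval -1.53 to 0.15, limma unadjusted p = 0.0947, adjusted p = 0.905, exact permutation p = 0.200). Without MMTV-Wnt1 tumor 3, the tumor with the highest Ocln value, the difference was -0.43. On omitting single tumors, the limma unadjusted p ran from 0.0510 to 0.245. The difference was -1.27 without the 3 tumors high in fat or muscle genes (limma unadjusted p = 0.0265, adjusted p = 0.765). MMTV-Wnt1 tumors 3 and 4, which remain in that setting, had the 2 highest Ocln values. MMTV-Wnt/ILK tumor 3, which it omits, had the highest value of its group. Relative to luminal markers, which lowers every difference by 0.12, the Ocln difference was -0.82 (limma unadjusted p = 0.0183, adjusted p = 0.975). With array weights it was -0.87 (limma unadjusted p = 0.0387, adjusted p = 0.436). Array weights put 2607 of all 23332 rows at an unadjusted p under 0.05, against 1193 without them.

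Tjp1, the ZO-1 scaffold, had the smallest SD of the 10 genes over the 8 tumors (0.19), next to that of Epcam (0.22). Its values were 10.53, 10.66, 10.51 and 10.56 in MMTV-Wnt1 tumors 1 to 4 and 10.31, 10.49, 10.73 and 10.12 in MMTV-Wnt/ILK tumors 1 to 4. The MMTV-Wnt1 tumors lay close together, and the MMTV-Wnt/ILK tumors lay on both sides of them, 3 below their range and 1 above it. The difference was -0.15 ± 0.16 (SE, 95% interval -0.52 to 0.22, limma adjusted p = 0.916, exact permutation p = 0.343). It shrank to -0.05 on omitting MMTV-Wnt/ILK tumor 4 and reached -0.25 on omitting MMTV-Wnt/ILK tumor 3.

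Cldn3 and Cldn4 are neighbours on chromosome 5 with 0 annotated genes between them. Cldn3, which seals the junction, had log2 values of 10.64, 10.05, 11.31 and 10.27 in MMTV-Wnt1 tumors 1 to 4 and of 10.40, 10.51, 10.83 and 10.11 in MMTV-Wnt/ILK tumors 1 to 4. All 4 MMTV-Wnt/ILK values lay within the MMTV-Wnt1 range. The difference was -0.10 ± 0.28 (SE, 95% interval -0.75 to 0.55, limma adjusted p = 0.974, exact permutation p = 0.800). Its sign turned without MMTV-Wnt1 tumor 3, where it was 0.15, and without MMTV-Wnt/ILK tumor 4, where it was 0.02.

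Cldn7, a claudin of the lateral membrane that binds EpCAM, was at 8.80, 8.17, 9.18 and 8.36 in MMTV-Wnt1 tumors 1 to 4 and at 8.18, 8.92, 9.26 and 8.46 in MMTV-Wnt/ILK tumors 1 to 4. The tumors numbered 3 were the highest of each group, and the groups covered nearly the same range. The difference was 0.08 ± 0.30 (SE, 95% interval -0.60 to 0.75, limma adjusted p = 0.985, exact permutation p = 0.743). Its sign was not stable, with values of -0.08, -0.01 and -0.11 without MMTV-Wnt1 tumor 2, MMTV-Wnt1 tumor 4 or MMTV-Wnt/ILK tumor 3.

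Epcam was at 12.33, 12.34, 12.89 and 12.39 in MMTV-Wnt1 tumors 1 to 4 and at 12.56, 12.44, 12.82 and 12.39 in MMTV-Wnt/ILK tumors 1 to 4. Each group held 1 high tumor, numbered 3 in both, and the other 6 tumors lay between 12.33 and 12.56. The difference was 0.07 ± 0.18 (SE, 95% interval -0.34 to 0.47, limma adjusted p = 0.973, exact permutation p = 0.600), and it was -0.02 without MMTV-Wnt/ILK tumor 3. The 250 bases before the start of Epcam, at chr17:87635729-87635978 on the plus strand in RefSeq (GRCm38.p6), are shown because they held the most matches of the members. Capitals mark the E-box letters, as above, and ACCGGT, letters bound by Grainyhead-like factors, which regulate epithelial junction genes.
Epcam: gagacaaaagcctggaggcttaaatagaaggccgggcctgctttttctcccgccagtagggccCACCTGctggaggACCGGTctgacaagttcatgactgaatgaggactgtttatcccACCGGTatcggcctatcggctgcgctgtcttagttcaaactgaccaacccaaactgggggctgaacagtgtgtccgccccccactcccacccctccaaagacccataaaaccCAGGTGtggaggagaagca
The E-box letters lay 187 and 19 bases before the start, and ACCGGT lay 174 and 131 bases before it. ACCGGT occurred in 1.86% of the 32851 windows and in 1 of the 9 members with a window, which had 12 windows.

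Cldn1, a sealing claudin that is needed for the barrier of the skin, was at 9.48, 9.56, 10.58 and 9.02 in MMTV-Wnt1 tumors 1 to 4 and at 8.85, 8.95, 10.17 and 9.30 in MMTV-Wnt/ILK tumors 1 to 4. The highest value of each group was again in the tumor numbered 3, and MMTV-Wnt/ILK tumors 1 and 2 lay below the MMTV-Wnt1 range. The difference was -0.34 ± 0.39 (SE, 95% interval -1.22 to 0.54, limma adjusted p = 0.916, exact permutation p = 0.429). It shrank to -0.04 on omitting MMTV-Wnt1 tumor 3 and reached -0.63 on omitting MMTV-Wnt/ILK tumor 3.

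Cldn8, known from the distal tubule of the kidney, had its high values in other tumors. It was at 8.28, 9.04, 7.93 and 10.14 in MMTV-Wnt1 tumors 1 to 4 and at 8.86, 9.53, 7.94 and 8.54 in MMTV-Wnt/ILK tumors 1 to 4. The tumors numbered 3, which were highest for Cldn1, had the lowest Cldn8 of their groups. The difference was -0.13 ± 0.50 (SE, 95% interval -1.27 to 1.01, limma adjusted p = 0.984, exact permutation p = 0.857), and it was 0.30 without MMTV-Wnt1 tumor 4.

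Cldn10, whose isoforms form pores for cations or anions, was dim, above the array's median on only 2 of the 8 arrays. Its values were 6.07, 7.39, 7.52 and 5.98 in MMTV-Wnt1 tumors 1 to 4 and 6.70, 7.12, 5.24 and 5.82 in MMTV-Wnt/ILK tumors 1 to 4. High and low tumors occurred in both groups, and MMTV-Wnt/ILK tumors 3 and 4 were below the MMTV-Wnt1 range. The difference was -0.52 ± 0.50 (SE, 95% interval -1.67 to 0.63, limma adjusted p = 0.914, exact permutation p = 0.429). Omitting single tumors moved it from -0.19, without MMTV-Wnt/ILK tumor 3, to -0.82, without MMTV-Wnt/ILK tumor 2. It was -0.30, -0.26 and -0.20 without MMTV-Wnt1 tumor 2, MMTV-Wnt1 tumor 3 or the 3 tumors high in fat or muscle genes.

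Muc1 was the most variable of the 10 genes, and its spread lay in the MMTV-Wnt1 tumors. They had log2 values of 9.38, 6.10, 8.54 and 7.37 for tumors 1 to 4, a 9.70-fold range, whereas MMTV-Wnt/ILK tumors 1 to 4 had 8.67, 8.68, 8.87 and 8.63, a 1.18-fold range. All 4 MMTV-Wnt/ILK tumors lay inside the MMTV-Wnt1 range, above its 2 low tumors and its tumor 3 and below its tumor 1. The means were 7.85 ± 1.43 (SD, n = 4) and 8.71 ± 0.10 (SD, n = 4), and the difference was 0.86 ± 0.60 (SE, 95% interval -0.51 to 2.24, limma unadjusted p = 0.187, adjusted p = 0.905, exact permutation p = 0.314). It was 0.28 without MMTV-Wnt1 tumor 2 and 1.37 without MMTV-Wnt1 tumor 1 (limma unadjusted p = 0.0257, adjusted p = 0.577). Omitting MMTV-Wnt1 tumor 1 put 2010 of all rows at an unadjusted p under 0.05, against 1193 with all tumors. For Muc1 the limma unadjusted p ran from 0.0257 to 0.517 on omitting single tumors. The difference in spread between the groups was not tested. MMTV-Wnt1 tumor 2, the lowest in Muc1, was also the tumor high in fat genes and in endothelial genes (9.63 against 8.18 to 8.69). It had the lowest mean of luminal markers of its group (9.93) and the lowest Cldn3 and Cldn7 of the 8 tumors. Its Epcam value was 12.34, next to the 12.33 and 12.39 of MMTV-Wnt1 tumors 1 and 4. The part of cell makeup in the Muc1 result was not tested. The 250 bases before the start of Muc1, at chr3:89228806-89229055 on the plus strand in RefSeq (GRCm38.p6), are shown for this most variable gene, with the E-box letters in capitals.
Muc1: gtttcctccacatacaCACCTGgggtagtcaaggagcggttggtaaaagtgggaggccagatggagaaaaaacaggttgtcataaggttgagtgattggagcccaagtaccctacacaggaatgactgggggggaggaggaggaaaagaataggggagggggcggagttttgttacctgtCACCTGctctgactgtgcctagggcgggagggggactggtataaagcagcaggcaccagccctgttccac
The matches lay 234 and 70 bases before the start. TTCNNNGAA, the letters bound by STAT factors such as Stat5a, was searched as well and was not in this window. It was in 7.02% of all windows. Only these 250 bases were searched, so sites farther away and any part of Stat5a were not tested.

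Over all 8 tumors, 8 of the 10 genes had a larger SD than the median named gene. The median SD over the 8 tumors was 0.63 for the 10 genes and 0.29 for all named genes. Muc1 (SD 1.04) stood at percentile 98.2 of the named genes, Cldn10 (0.82) at 95.9, Cldn8 (0.78) at 95.1, Ocln (0.67) at 92.3, Cldn4 (0.64) at 91.3 and Cldn1 (0.61) at 89.9. Cldn3 (0.41) and Cldn7 (0.43) stood at 74.0 and 76.6. Epcam (0.22) and Tjp1 (0.19) were below the median, at 30.6 and 22.4, and among genes of like mean level they stood at 53.8 (of only 13 genes) and 30.7. The ratio of the highest to the lowest tumor ran from 1.47-fold for Epcam to 4.86-fold for Cldn10 and 9.70-fold for Muc1.

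The same tumors were high or low for many of the genes. MMTV-Wnt1 tumor 3 had the highest value of the 8 for 6 genes (Cldn1, Cldn3, Cldn4, Cldn10, Epcam and Ocln) and lay above the mean for 9, all but Cldn8. MMTV-Wnt/ILK tumor 3 had the highest value for Cldn7 and Tjp1 and lay above the mean for 8. MMTV-Wnt/ILK tumor 4 had the lowest value for Cldn4, Tjp1 and Ocln and MMTV-Wnt1 tumor 2 for Cldn3, Cldn7 and Muc1. MMTV-Wnt1 tumor 3 was the tumor low in fibroblast genes and MMTV-Wnt/ILK tumor 3 one of those high in muscle genes, and their part in these values was not tested.

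**Figure D3:**
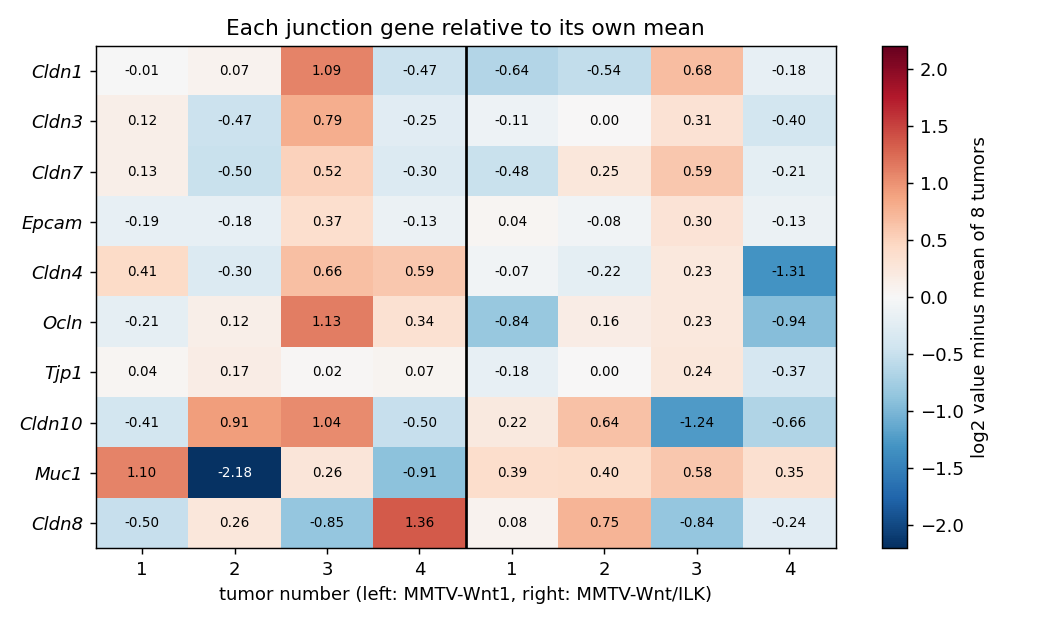
Log2 value of each junction gene (rows) in each tumor (columns) minus the gene's mean over the 8 tumors, with MMTV-Wnt1 tumors left of the line and MMTV-Wnt/ILK tumors right of it. MMTV-Wnt1 tumor 3 is above the mean in 9 rows and MMTV-Wnt/ILK tumor 4 in 1, and the largest deviation is that of Muc1 in MMTV-Wnt1 tumor 2 (-2.18).

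Across the 8 tumors, Cldn1, Cldn3, Cldn7 and Epcam had positive correlations with each other and Cldn8 had negative ones with all 4, several of which rested on the tumors numbered 3. All 45 pairs of genes were compared, 33 with a positive and 12 with a negative Pearson's r and a median r of 0.33. By exact permutation, 5 pairs had an unadjusted p under 0.05 and 0 an adjusted p under 0.05. The strongest pair was Cldn3 and Cldn7, at r = 0.84 (exact permutation p = 0.00595, adjusted p = 0.220) and Spearman's rho = 0.86 (exact permutation p = 0.0107, adjusted p = 0.482). It held at r = 0.80 without the 2 tumors farthest from the median of Cldn3 and at 0.87 after the group means were subtracted. Cldn3 and Epcam had r = 0.84 (exact permutation p = 0.00977, adjusted p = 0.220) and rho = 0.60 (exact permutation p = 0.132, adjusted p = 0.641), with r = 0.61 without the 2 farthest tumors.

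Cldn1 and Cldn8 had r = -0.76 (exact permutation p = 0.0294, adjusted p = 0.304) and rho = -0.71 (exact permutation p = 0.0576, adjusted p = 0.625), with r = -0.51 without the 2 farthest tumors. The positive relations of Cldn1 with Cldn3, Cldn7 and Epcam rested on the tumors numbered 3. With Cldn3 its r was 0.74 (exact permutation p = 0.0364, adjusted p = 0.304, with rho = 0.43, p = 0.299, adjusted p = 0.700) and became -0.30 without the 2 farthest tumors, which were these. With Epcam its r was 0.75 (exact permutation p = 0.0382, adjusted p = 0.304, with rho = 0.21, p = 0.619, adjusted p = 0.923) and became -0.85. With Cldn7 its r was 0.69 (exact permutation p = 0.0607, adjusted p = 0.304, with rho = 0.48, p = 0.243, adjusted p = 0.643) and became -0.03. Without the same tumors, Cldn7 with Epcam went from r = 0.69 (exact permutation p = 0.0606, adjusted p = 0.304, with rho = 0.57, p = 0.151, adjusted p = 0.641) to -0.23, and Cldn7 with Cldn8 from -0.57 (exact permutation p = 0.143, adjusted p = 0.358, with rho = -0.62, p = 0.115, adjusted p = 0.641) to -0.08. The neighbours Cldn3 and Cldn4 had r = 0.63 (exact permutation p = 0.0944, adjusted p = 0.325) and rho = 0.69 (exact permutation p = 0.0694, adjusted p = 0.625), with r = 0.56 without the 2 farthest tumors. Cldn1, Cldn3, Cldn7 and Epcam were not the only genes with such values. Cldn4 and Ocln had r = 0.71 (exact permutation p = 0.0508, adjusted p = 0.304) and rho = 0.74 (exact permutation p = 0.0458, adjusted p = 0.625). Their r became 0.22 without the 2 farthest tumors. Ocln also had r = 0.67, 0.66 and 0.66 with Tjp1, Cldn3 and Cldn1 (adjusted exact permutation p = 0.304 for each). Groups of 4 tumors were too small to give these relations within each group.

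**Figure D4:**
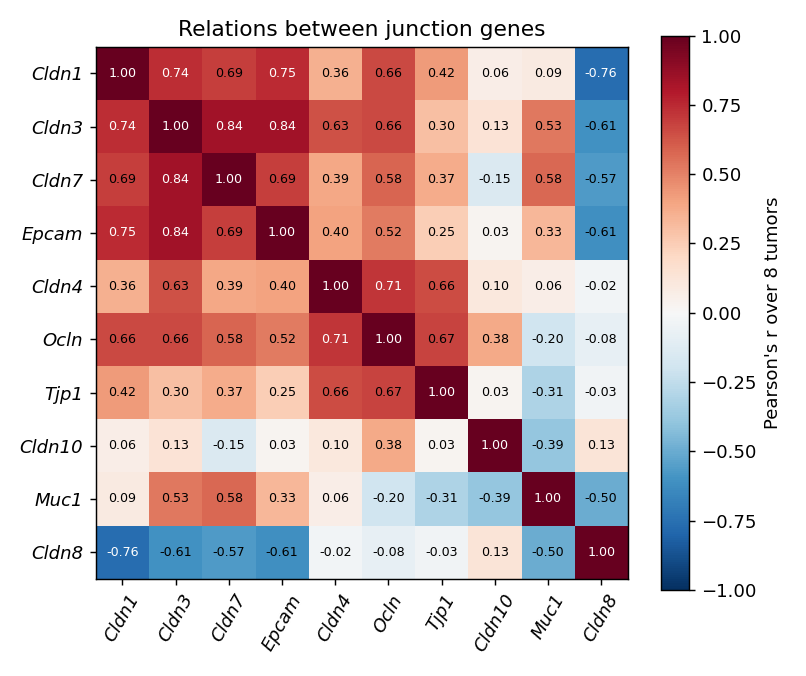
Pearson's r over 8 tumors for each pair of junction genes, coloured from -1 to 1. Cldn1, Cldn3, Cldn7 and Epcam have positive values from 0.69 to 0.84 with each other, and Cldn8 has values of -0.57 to -0.76 with these 4. Ocln has values of like size with Cldn4 (0.71), Tjp1 (0.67), Cldn3 (0.66) and Cldn1 (0.66).

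The same genes were set against 8 lists of cell type markers, in 80 comparisons of which 9 had an unadjusted exact permutation p under 0.05 and 0 an adjusted p under 0.05. Cldn3 had r = 0.82 with the luminal markers (exact permutation p = 0.0108, adjusted p = 0.364) and rho = 0.88 (exact permutation p = 0.00724, adjusted p = 0.579), with r = 0.88 without the 2 farthest tumors. Cldn7 had r = 0.82 with them (exact permutation p = 0.0182, adjusted p = 0.364) and rho = 0.76 (exact permutation p = 0.0368, adjusted p = 0.665), and Epcam r = 0.81 (exact permutation p = 0.0165, adjusted p = 0.364) and rho = 0.74 (exact permutation p = 0.0458, adjusted p = 0.665). Without the 2 farthest tumors these were 0.55 and 0.52. Cldn1 had r = -0.82 with the basal markers (exact permutation p = 0.0143, adjusted p = 0.364) and rho = -0.76 (exact permutation p = 0.0368, adjusted p = 0.665), with -0.40 without the 2 farthest tumors. Cldn8 had r = 0.65 with the basal markers (exact permutation p = 0.0823, adjusted p = 0.470) and rho = 0.64 (exact permutation p = 0.0962, adjusted p = 0.699), with 0.82 without them. Lower Cldn3, Epcam and Ocln went with higher fibroblast markers, at r = -0.80, -0.70 and -0.70 (exact permutation p = 0.0308, 0.0406 and 0.0459, adjusted p = 0.408 for each), with rho between -0.40 and -0.43 (exact permutation p of 0.299 to 0.327, adjusted p of 0.725 to 0.726). Without the 2 farthest tumors, which include MMTV-Wnt1 tumor 3 for each, these were -0.37, -0.57 and 0.88. The part of fibroblast content in the values of these genes was not tested. Cldn3 and Epcam had r = -0.75 and -0.74 with the basal markers (exact permutation p = 0.0309 and 0.0417, adjusted p = 0.408 for each), with rho = -0.62 and -0.24 (exact permutation p = 0.115 and 0.582, adjusted p = 0.713 and 0.896), and -0.79 and 0.38 without the 2 farthest tumors. The points share arrays and the cell makeup of each tumor, and the luminal list holds Cdh1 and Elf3, which are also in the junction lists.

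**Figure D5:**
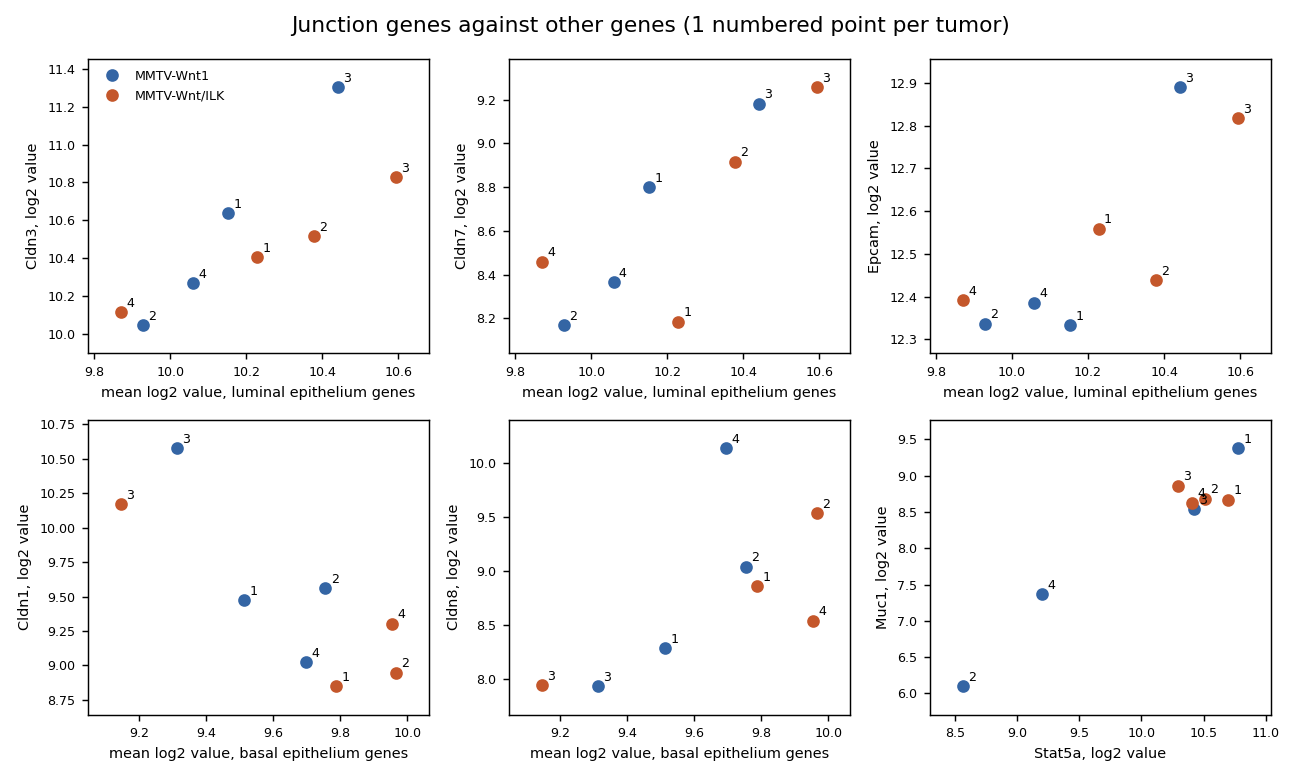
Log2 value of 5 junction genes against the mean log2 value of luminal or basal marker genes, and of Muc1 against Stat5a, with 1 numbered point per tumor and groups by colour. Cldn3 has r = 0.82 with the luminal markers and Cldn1 r = -0.82 with the basal markers. The 2 low Muc1 tumors, MMTV-Wnt1 tumors 2 and 4, are also the lowest in Stat5a (8.57 and 9.20). Stat5a was picked as the most similar of 4094 genes to Muc1 in these tumors, so the shared low tumors follow from that choice.

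For each gene the 3 most similar genes over the 8 tumors, of which 1 to 3 are named here, were found by Pearson's r among 4094 genes with an SD of at least 0.3. Being the highest of 4094 values, these r are descriptions without a test. The mean of the 10 genes was most like Sqstm1 (r = 0.98), which codes for the autophagy receptor p62, St14 (0.96), the epithelial membrane protease matriptase, and Trim25 (0.95), a ubiquitin ligase. Muc1 was most like Stat5a (0.97), which carries prolactin signals in the mammary gland, Trf (0.96), which codes for transferrin, and Bcl3 (0.95). Stat5a was at 10.77, 8.57, 10.42 and 9.20 in MMTV-Wnt1 tumors 1 to 4 and at 10.70, 10.51, 10.29 and 10.41 in MMTV-Wnt/ILK tumors 1 to 4. As for Muc1, the MMTV-Wnt/ILK tumors were close together and MMTV-Wnt1 tumors 2 and 4 were low.

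The genes most like Cldn10 were Acta2 (0.91), Coch (0.89) and Tagln (0.88), of which Acta2 and Tagln code for proteins of contractile cells such as myoepithelium. With the mean of the basal markers, which include Acta2, Cldn10 had only r = 0.26 (exact permutation p = 0.532, adjusted p = 0.774). Its rho with them was 0.14 (exact permutation p = 0.752, adjusted p = 0.947). Those most like Cldn8 were Pdgfc (0.98), a growth factor, and Klhl5 (0.98). Ocln was most like Saraf (0.99), a regulator of calcium entry, and Serinc5 (0.98). Cldn7 was most like Ttc39a (0.98) and Lipa (0.97), the lysosomal acid lipase, Cldn1 like Baiap2l1 (0.98), which binds actin, Cldn3 like Slfn2 (0.96), and Epcam like Fdx1 (0.95), a mitochondrial electron carrier. The closest genes of Cldn4 and Tjp1 were, like that of Cldn10, less similar than those of the other members. They were H2bc18, a histone gene, at 0.92 and Vdac1, a channel of the outer mitochondrial membrane, at 0.91.

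No other junction gene passed the adjusted test either. Of 86 genes in 6 lists, 73 had a row of their own. In limma 0 of these 73 passed an adjusted p under 0.05 and 1 passed an unadjusted p under 0.05 (against 5.11% of all rows). The groups overlapped for all 73, whereas they did not overlap for 2.9% of all rows. The mean was lower in MMTV-Wnt/ILK tumors for 47 and higher for 26, with a median difference of -0.05, the same as over all named genes. The 1 gene was Cldn9, a claudin of the inner ear, at -0.37 ± 0.15 (SE, limma unadjusted p = 0.0304, adjusted p = 0.905, exact permutation p = 0.0571). It was dim, at 4.70 to 4.88 in MMTV-Wnt1 tumors and 4.32 to 4.72 in MMTV-Wnt/ILK tumors. Of the 23 other tight junction genes 18 had a lower mean, among them Cldn11 (-0.76, standard error 0.36), the claudin of myelin and of the testis.

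Of the 11 polarity genes, 6 had a higher and 5 a lower mean. The smallest p of the list belonged to Pard6a and Pard3, members of the PAR complex, with differences of -0.14 and 0.15. Of the 11 adherens junction genes, 3 had a higher and 8 a lower mean, with a difference of 0.22 (standard error 0.17) for the adhesion receptor gene Nectin1 and of -0.25 (standard error 0.22) for Ctnnb1, which codes for β-catenin. Of the 9 desmosome genes, 5 had a lower mean, and Dsc2, a desmosomal cadherin, and Pkp1, a plakophilin, had differences of -0.98 (standard error 0.46) and -0.79 (standard error 0.41). Neither of these passed (limma adjusted p = 0.905, exact permutation p = 0.143 for each). Of 5 gap junction genes, 4 had a lower mean, with -0.60 (standard error 0.42) for Gja1, the connexin of basal cells, and -0.79 (standard error 0.66) for Gjb1. Of 14 factors that regulate junction genes, 7 had a higher and 7 a lower mean. The smallest p of that list belonged to Klf5 (-0.53, standard error 0.24, limma adjusted p = 0.905, exact permutation p = 0.114) and Grhl3 (-0.87, standard error 0.43, limma adjusted p = 0.905, exact permutation p = 0.143), an epithelial Grainyhead-like factor.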

How the data were processed

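RNA of 8 mouse mammary tumors (1 μg each) was hybridized to Mouse Exon 1.0 ST arrays. The deposited values are gene-level log2 values that the authors made with RMA in ArrayAssist (5.0 per the labels, another version in the paper), which corrects background and summarizes probes, and with quantile normalization. The log base was inferred from the range, 1.21 to 13.86, and the array medians differ in spite of that normalization. Groups came from the labels. Of 23332 rows, 14996 name 1 gene, 1019 several and 7317 none. For 135 genes with several rows, the row of highest mean was used.

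Groups were compared by limma 3.58.1 in R 4.3.3 (lmFit, eBayes, no covariate or filter) and adjusted by the Benjamini-Hochberg method across the table, after a check on simulated data. Single genes also have an exact 2-sided permutation test over 70 assignments of tumors (smallest p 0.0286), and correlations one over 40320 orders (SciPy 1.17.1). Tumors are described as independent, so p-values measure the spread between tumors. The number of arrays limits the precision, and 0 array pairs were identical.

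All 10 members are named, with the 2 genes of smallest p of each other list and up to 3 of the most similar genes among those brighter than the median row. Members and lists were chosen with earlier results of these data known, and promoter motifs after seeing the data. Alternatives were array weights, median-centring, a variance trend, an equal-variance test per row, a filter that drops the dimmest 25%, repeated quantile normalization, values relative to luminal markers, a block for tumor number, omission of each tumor, the mean over rows of a gene and, added after seeing the data, omission of 3 tumors high in fat or muscle genes.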

Additional observations from a re-analysis of the deposited data

Results flagged for a closer look

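In groups of 4 tumors, 3 genes had 1 tumor far from the other 3. Epcam was at 12.89 in MMTV-Wnt1 tumor 3 and at 12.33 to 12.39 in the other MMTV-Wnt1 tumors. Cldn9 was at 4.72 in MMTV-Wnt/ILK tumor 3 and at 4.32 to 4.38 in the others of its group. Klf5 was at 9.90 in MMTV-Wnt1 tumor 4 and at 9.38 to 9.46 in the others of its group. Chance alone sets 1 in 20 groups apart in this way, or 2.2 of the 44 groups examined.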

How the results depend on the processing

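No member passed an adjusted p under 0.05 in limma under any of the 18 alternatives, and the lowest adjusted p was 0.424. Over the whole table, rows at an adjusted p under 0.05 numbered 0 to 13 on omitting single tumors (13 without MMTV-Wnt/ILK tumor 2), and rows at an unadjusted p under 0.05 (1193) from 727, without MMTV-Wnt/ILK tumor 4, to 2010, without MMTV-Wnt1 tumor 1, and were 2607 with array weights. Of the 73 other junction genes, 1 had an unadjusted p under 0.05, and 0 to 5 did on omitting single tumors. The count was 4 with median-centred arrays, 4 with repeated quantile normalization and 8 without the tumors high in fat or muscle genes. In these 3 settings 1228, 1307 and 1424 of all 23332 rows had an unadjusted p under 0.05, against 1193 in the main fit. The count of junction genes was 0 on omitting MMTV-Wnt/ILK tumor 2 or 4, 2 on omitting MMTV-Wnt1 tumor 1 or 4, 4 on omitting MMTV-Wnt1 tumor 3 and 5 on omitting MMTV-Wnt/ILK tumor 3. The sign of 4 members with small differences turned, and the cause was not tested. Leaving out each tumor gave -0.27 to 0.15 for Cldn3, -0.11 to 0.26 for Cldn7, -0.44 to 0.30 for Cldn8 and -0.023 to 0.20 for Epcam. Relative to luminal markers Cldn7 was at -0.047 and Epcam at -0.057, and without the tumors high in fat or muscle genes they were at -0.25 and -0.17. With array weights the difference was 1.36 for Muc1 (limma unadjusted p = 0.0205, adjusted p = 0.424). Same-numbered tumors of the groups deviated together at correlations of 0.107, 0.132, 0.155 and -0.00405, so the numbers were not taken as pairs, though MMTV-Wnt1 tumors 1, 2 and 3 correlated best with their own number. With the tumor number as a block, 4 of the other junction genes had an unadjusted p under 0.05, and Ocln had 0.0295 (limma adjusted p = 0.766). The block put 1485 of all rows at an unadjusted p under 0.05, against 1193 without it. Median-centring moved the median difference of all rows from -0.03 to -0.05. Of 283 alternative values, 12 turned the sign of a member difference and 14 moved a count by over 1.5 times or from 0. The median difference of the members kept its sign but ran from -0.26 to -0.06. With 4 arrays a group, the 95% intervals of Cldn4, Ocln, Cldn8, Cldn10, Cldn1 and Muc1 reach beyond a 2-fold difference.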

Other observations

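Among the claudins outside the set, Cldn2, a pore-forming claudin, was at 4.84, 5.98, 8.01 and 4.70 in MMTV-Wnt1 tumors 1 to 4 and at 4.56, 6.10, 7.35 and 5.53 in MMTV-Wnt/ILK tumors 1 to 4. Its highest values were in the tumors numbered 3, and the group means of 5.89 and 5.88 nearly coincided. Gjb1, which codes for a gap junction protein of many epithelia, was also highest in these tumors, at 9.45 and 8.11, against 6.12 to 7.34 in the other 6. Cldn2 was named after its values were seen.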
